A study of Mus musculus with 28 samples.

Results

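The 10 genes described here are 5 GATA factors (Gata2, Gata3, Gata4, Gata5 and Gata6), 3 MEF2 factors (Mef2a, Mef2c and Mef2d) and both Friend of GATA (FOG) cofactors (Zfpm1 and Zfpm2), out of 19938 genes with a named probe set. They were taken by gene symbol in the probe annotation and are read by 11 probe sets, of which 2 belong to Mef2d. Their levels were followed in mouse embryonic fibroblasts (MEFs) carrying combinations of cardiac transcription factors, on 28 single-channel expression arrays. The letters of a combination name its factors: G is GATA4, M is MEF2C, T is TBX5, N is NKX2.5, H is Hand2 and D is MYOCD. There were 5 GMT arrays, 6 NGMT, 3 HGMT, 3 HNGMT, 4 DMT and 4 DMNT arrays, and 3 arrays of MEFs without factors (0F). All factor-treated groups therefore received MEF2C and TBX5, and GATA4 was left out of DMT and DMNT. The cells of all factor-treated groups also carried rtTA and the TroponinT-GCaMP-Zeo reporter by lentivirus, and received their factors as tetO lentiviruses. They were kept in AGM-based reprogramming medium with doxycycline at 2 μg/mL. They were selected for 7 days in zeocin at 300 μg/mL, a resistance that the troponin T reporter drives, and were collected on day 21. The 0F cells were non-transduced MEFs collected on day 21 without selection, per the titles and protocols, although the source label names them as selected cells too. The delivered genes, the selection and the culture history thus differ together between any combination and 0F. The labels call the arrays independent biological replicates.

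GATA factors are zinc finger proteins that bind DNA at the letters GATA. Gata4, Gata5 and Gata6 act in heart and endoderm, and Gata2 and Gata3 are best known from blood, endothelium and lymphoid cells. FOG proteins do not act through DNA sites of their own: they bind the zinc finger of a GATA factor and bring in the NuRD histone deacetylase complex, so they can turn a GATA factor from activator to repressor. Zfpm2 (FOG2) is the partner of GATA4 in heart development, and Zfpm1 (FOG1) is best known as the partner of GATA1 in red cells and platelets. MEF2 factors bind A/T-rich sites in muscle genes, and are held back by class IIa histone deacetylases that calcium-dependent kinases remove from the nucleus. Mef2c is the MEF2 gene of the early heart, and Mef2a and Mef2d are expressed in many tissues.

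The deposited values are log2 signal, and the arrays fell into 3 sets by the distribution of their values, which the labels do not name. Set 1 holds the 0F arrays, GMT replicates 1 and 2 and NGMT replicates 1 to 3 (array medians 6.68 to 6.75). Set 2 holds GMT replicates 3 to 5, NGMT replicates 4 to 6, all HGMT and HNGMT arrays and DMT replicates 1 to 3 (6.86 to 6.95), and set 3 holds DMT replicate 4 and the DMNT arrays (7.64 to 7.65). HNGMT replicate 1 stood apart: its log2 differences from the other HNGMT arrays had an SD of 0.322 to 0.360 over tested genes, against 0.0911 to 0.218 for the other same-group pairs of set 2. In set 3, 16.6% to 31.3% of tested genes had exactly the same value on a pair of arrays, against at most 3.71% in set 1 and 1.24% in set 2. Gata3 was such a gene, at 8.45 on all 4 DMNT arrays. The SD of the differences between pairs of set 3 was 0.0614 to 0.148, which overlaps that of same-group pairs in the other sets. Whether these arrays are separate hybridizations of separate cultures was not tested. limma was fitted to the 28 arrays together, with terms for group and for set, and a gene was called at an adjusted p under 0.05 (Benjamini-Hochberg over 12211 tested genes). The 0F arrays all lie in set 1. A value for HGMT, HNGMT, DMT or DMNT against 0F is therefore linked by GMT and NGMT, the combinations present in sets 1 and 2, and for DMNT by the single DMT array of set 3 as well. Beside such values stands a direct difference, taken after quantile normalization with no term for set. With that setting 52.6% of all tested genes were called in GMT, 51% in NGMT, 55% in HGMT, 52.9% in HNGMT, 60.3% in DMT and 63.8% in DMNT against 0F.

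**Figure D1:**
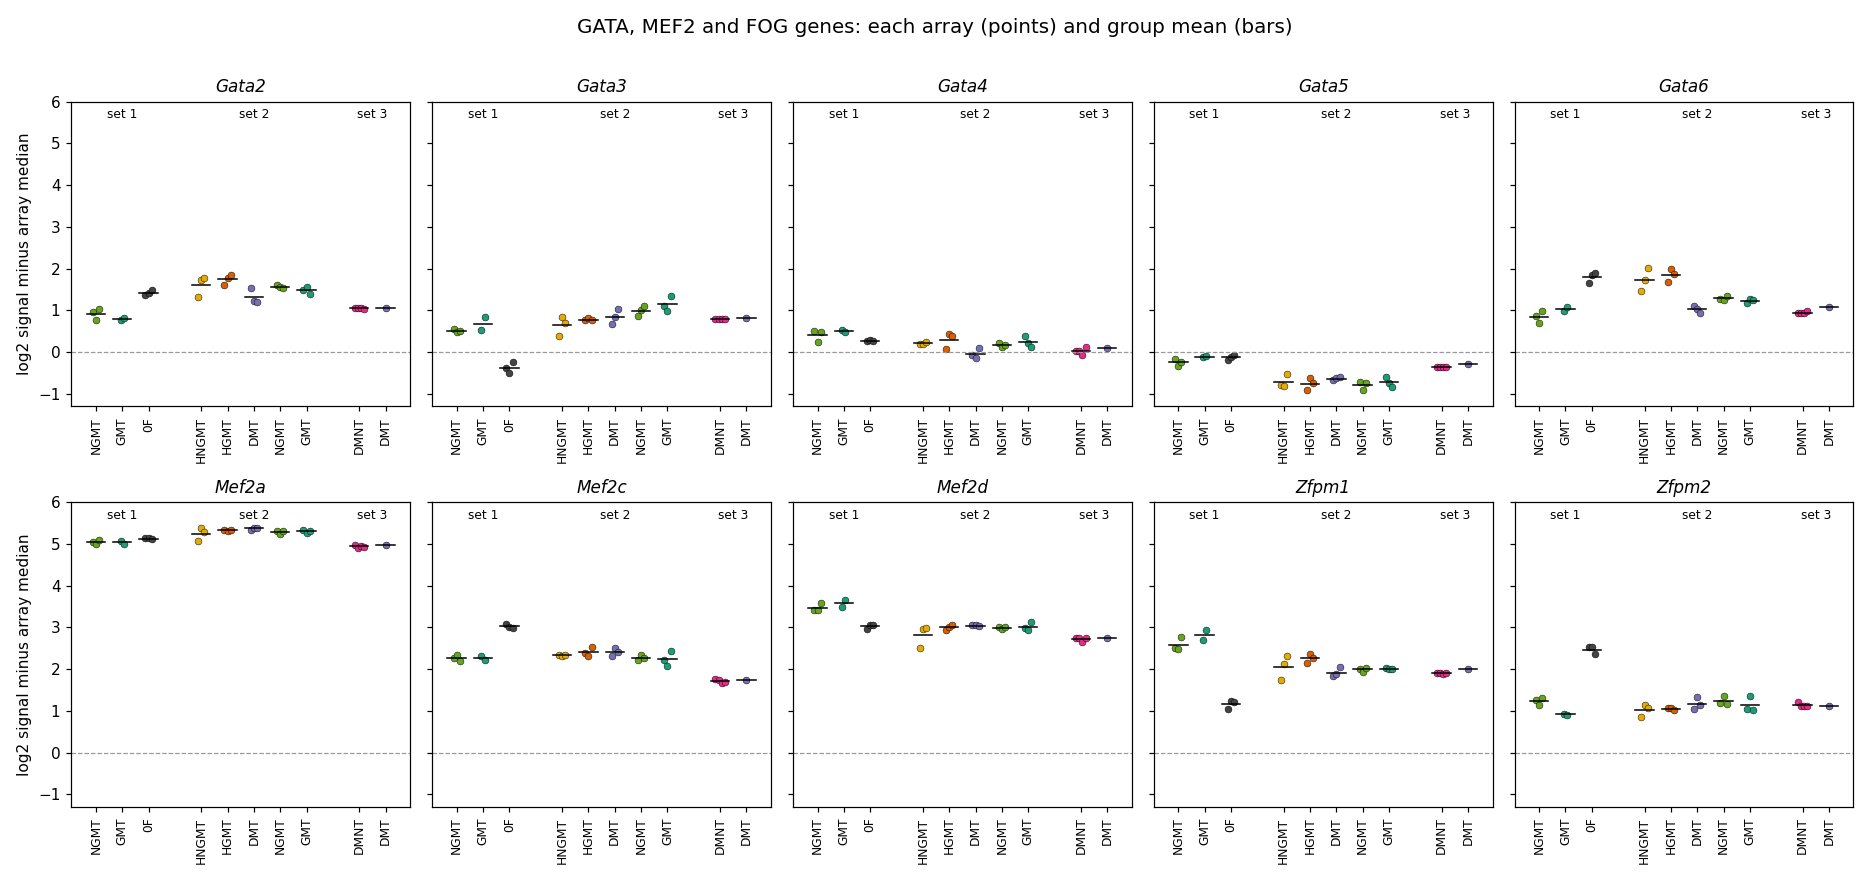
Log2 signal of each gene minus the median of its array, by group inside each array set, with 1 point per array and a bar at the group mean; the dashed line is the array median. In set 1, Zfpm1 and Gata3 lie higher on the NGMT and GMT arrays than on the 3 0F arrays, Zfpm2, Mef2c, Gata6 and Gata2 lie lower, and Gata5 lies under the array median on all 28 arrays.

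The endogenous and delivered forms of GATA4 and MEF2C cannot be told apart here, because the sources used here do not say which part of a transcript each probe set reads. Gata4 itself, a delivered factor in 4 of the 6 combinations, read 7.28 and 7.19 on the GMT arrays of set 1, 7.24, 6.97 and 7.19 on the NGMT arrays, and 7.02, 7.04 and 6.95 on the 0F arrays. The GMT values all lay above the 0F values, while the NGMT values overlapped them. The log2 difference was 0.22 ± 0.08 (SE) in GMT against 0F (limma, adjusted p = 0.02) and 0.30 ± 0.10 in HGMT against 0F (adjusted p = 0.0139), both called higher. It was 0.13 in NGMT, 0.20 in HNGMT, -0.08 in DMT and -0.14 in DMNT against 0F, with none of these called. As direct differences the GMT and HGMT values were 0.05 and 0.01 and were not called, and those of DMT and DMNT, -0.28 and -0.25, were called lower. Within GMT and NGMT, set 2 minus set 1 was -0.26 ± 0.06 for Gata4, which was called. No DMT or DMNT array lies in set 1 with the 0F arrays. The probe set was dim, between the 48.1st and 56.9th percentile of its array, and lay above the array median on 25 of 28 arrays. Of the other delivered genes, Hand2 was higher by 2.71 ± 0.07 in HGMT against GMT and Myocd by 3.63 ± 0.07 in DMT against GMT, while Tbx5 was called lower in GMT against 0F (-0.36 ± 0.10; limma, adjusted p = 0.00448). Nkx2-5 was at -0.03 ± 0.05 in NGMT against GMT and was not called.

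Mef2c, delivered in every combination, was lower than in 0F in all of them. In set 1 it read 9.05 and 8.91 on the GMT arrays and 9.0, 9.06 and 8.89 on the NGMT arrays, against 9.83, 9.74 and 9.67 on the 0F arrays. No value of either combination reached the lowest 0F value. The log2 difference was -0.77 ± 0.08 in GMT against 0F (limma, adjusted p = 4.40e-09) and -0.76 ± 0.07 in NGMT against 0F, a level of 0.59 times that of 0F in both. Against 0F it was -0.58 in HGMT, -0.67 in HNGMT, -0.62 in DMT and -0.64 in DMNT, all called lower, and the direct differences ran from -1.09 to -0.59 and were called in the same 6 comparisons. In set 2 the gene read 9.08 to 9.43 on all arrays but 1, GMT replicate 4 at 8.95. Between combinations Mef2c moved by -0.10 to 0.19, with none of 6 comparisons called. Within GMT and NGMT, set 2 minus set 1 was 0.00 ± 0.06, which was not called, while 7 of 9 members and 72.2% of all genes were called in set 2 against set 1.

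Mef2c starts at several promoters, and the table of RefSeq promoters (GRCm38.p6) holds 3 for it, the only windows among the 10 found for 7 members that held a match to any of 6 motifs searched on both strands. The 250 bases before each start are shown, all on the plus strand, because they are the windows in which the delivered factors' motifs could be read for a delivered gene's own locus. The first is chr13:83503784-83504033 with the NKX2.5 letters CAAGTG in capitals, the second chr13:83523406-83523655 with the T-box letters AGGTGT, and the third chr13:83573357-83573606 with an E-box, searched as CAGCTG or CATCTG and read here on the minus strand.
Mef2c promoter 1: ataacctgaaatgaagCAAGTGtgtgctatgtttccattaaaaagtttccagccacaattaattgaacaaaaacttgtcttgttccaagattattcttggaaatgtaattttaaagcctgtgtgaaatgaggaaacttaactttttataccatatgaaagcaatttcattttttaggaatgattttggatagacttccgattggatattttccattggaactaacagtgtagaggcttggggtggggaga
Mef2c promoter 2: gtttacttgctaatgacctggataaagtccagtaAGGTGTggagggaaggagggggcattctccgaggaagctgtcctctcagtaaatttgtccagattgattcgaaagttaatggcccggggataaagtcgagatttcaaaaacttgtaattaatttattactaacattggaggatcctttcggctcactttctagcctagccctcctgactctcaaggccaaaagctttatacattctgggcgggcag
Mef2c promoter 3: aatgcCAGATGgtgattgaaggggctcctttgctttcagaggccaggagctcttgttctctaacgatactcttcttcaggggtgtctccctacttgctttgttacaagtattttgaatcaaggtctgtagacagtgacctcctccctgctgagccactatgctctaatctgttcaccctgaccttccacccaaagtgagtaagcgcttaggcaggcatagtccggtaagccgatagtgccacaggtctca
The matches begin 234, 216 and 245 bases before the start. Of 32841 windows of the same length, 11.6% held the NKX2.5 letters, 11.8% the T-box letters and 25.5% an E-box. The GATA letters (AGATAA or AGATAG and TGATAA or TGATAG) were in 0 of the 10 windows and in 26.5% of all windows, and the MEF2 and CArG motifs were in 0 of the 10 and in 2.92% and 1.47% of all. The Mef2c windows had a GC content of 33.6%, 44.8% and 49.6%, against 61.6% to 74.0% in the other 7. A match describes letters in a window and not a bound site.

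In the set-adjusted values the FOG genes had the largest differences of the 9 tested genes in each of the 6 comparisons with 0F, Zfpm1 higher and Zfpm2 lower. In the direct differences Zfpm1 moved less than Gata3 in all 6. Zfpm1 read 9.44 and 9.63 on the GMT arrays of set 1 and 9.24, 9.22 and 9.45 on the NGMT arrays, against 7.80, 7.97 and 7.88 on the 0F arrays. Every GMT and NGMT array lay more than 1 log2 unit above every 0F array. Zfpm2 read 7.67 and 7.60 in GMT and 7.99, 7.87 and 8.01 in NGMT, against 9.28, 9.27 and 9.03 in 0F, again with no overlap. In GMT against 0F the log2 difference was 1.58 ± 0.10 for Zfpm1 (limma, adjusted p = 8.95e-13), 3.0 times the 0F level, and -1.48 ± 0.09 for Zfpm2 (adjusted p = 1.11e-12), 0.36 times the 0F level. Of all tested genes, 2.54% rose more than Zfpm1 and 3.26% fell more than Zfpm2 in that comparison. Inside set 1 alone, with no array of another set in the fit, the values were 1.65 ± 0.09 and -1.55 ± 0.08.

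Both directions held in each combination. Against 0F, Zfpm1 was higher by 1.46 in NGMT, 1.82 in HGMT, 1.60 in HNGMT, 1.43 in DMT and 1.34 in DMNT, and Zfpm2 was lower in the same combinations by 1.29 to 1.53 on the log2 scale, with every value called (the largest adjusted p, limma, was 2.20e-06). As direct differences Zfpm1 ran from 0.76 in DMT to 1.10 in GMT, over 1.5 times smaller in HGMT, HNGMT and DMT, and Zfpm2 from -1.44 to -1.18, all called. Within GMT and NGMT Zfpm1 read 0.69 ± 0.06 lower in set 2 than in set 1 (called), while Zfpm2 read 0.10 ± 0.07 higher (not called). In set 2 Zfpm1 read 8.70 to 9.26 on 14 arrays and 8.62 on HNGMT replicate 1. The promoter of Zfpm1, chr8:122281891-122282140 on the plus strand, is shown because this gene had the largest set-adjusted difference, 1.82 in HGMT against 0F. It precedes a transcript start that lies inside the annotated gene. It held none of the 6 motifs, so no letter is capitalized, and its GC content was 73.2%.
Zfpm1 promoter: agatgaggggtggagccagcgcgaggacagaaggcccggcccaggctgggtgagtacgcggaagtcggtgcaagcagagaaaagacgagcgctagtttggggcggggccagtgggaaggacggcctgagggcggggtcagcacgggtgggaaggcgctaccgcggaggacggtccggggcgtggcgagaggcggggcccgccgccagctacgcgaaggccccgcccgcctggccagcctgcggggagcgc

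Of the FOG partners in the NuRD complex, 13 genes were tested, and in GMT against 0F 3 were called higher and 3 lower, where 60.1% of all genes were called, with a median log2 difference of 0.08 against 0.05 for all genes. Those of largest difference were Chd3, a nucleosome remodeler (0.57 ± 0.10), Gatad2a, a structural subunit (0.46 ± 0.06), and the deacetylases Hdac2 (-0.29 ± 0.08) and Hdac1 (-0.21 ± 0.04). None of the 13 was called by limma in HGMT against GMT (26.7% of all genes), where 1 had an unadjusted p under 0.05. In DMT against GMT 1 was called (18.6% of all genes), the histone-binding subunit Rbbp7 (0.13 ± 0.04).

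Across the whole family, 8 of 9 tested genes were called in GMT against 0F, 4 higher and 4 lower, where 60.1% of all tested genes were called (35.9% higher and 24.1% lower). In NGMT against 0F 7 of 9 were called (60.8% of all genes), and 7 of 9 also in HGMT (51.1%), HNGMT (49.7%), DMT (56.4%) and DMNT (41.4%) against 0F. Inside set 1, 8 of 9 did not overlap between GMT and 0F (73.9% of all genes) and 7 of 9 between NGMT and 0F (69.1%). The 6 comparisons share their 0F arrays, and the counts are a description. The median over the 9 genes was -0.08 in GMT against 0F, and 0.05 over all genes.

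**Figure D2:**
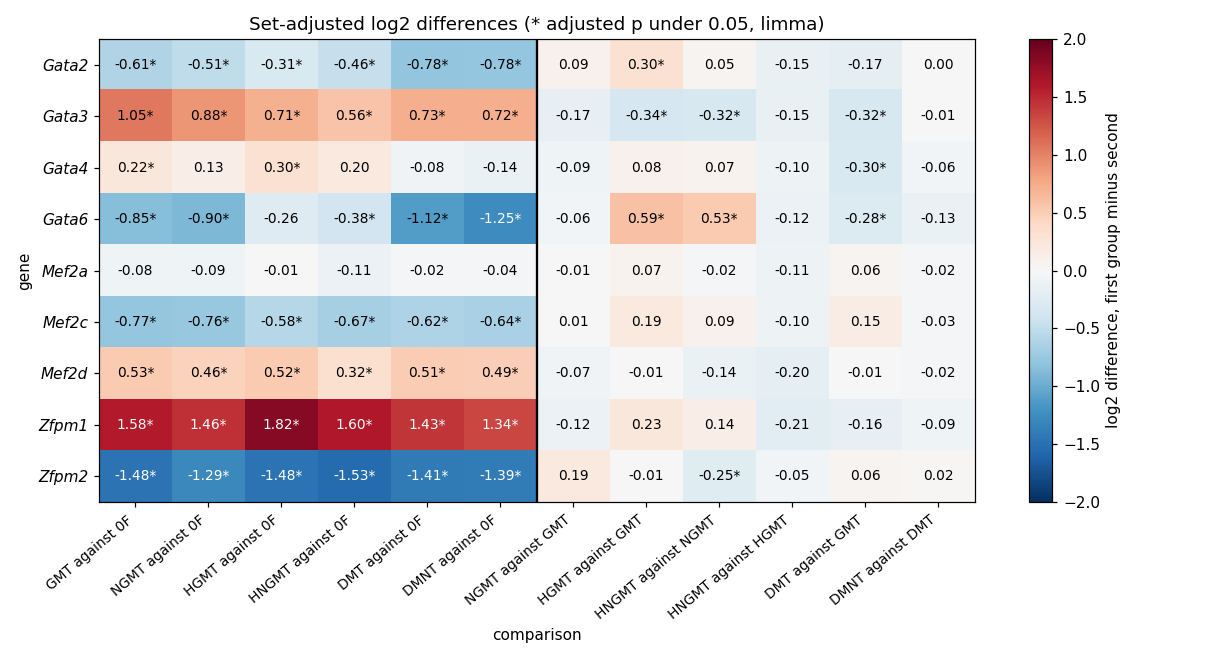
Set-adjusted log2 differences of the 9 tested genes (rows) in 12 comparisons (columns), first group minus second, with red for higher and an asterisk where the adjusted p was under 0.05. The 6 columns against 0F hold the large values, from -1.53 for Zfpm2 to 1.82 for Zfpm1; among combinations the largest is 0.59, Gata6 in HGMT against GMT.

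Among the GATA genes, Gata3, a regulator of T lymphocytes and epithelia, was higher in every combination than in 0F. In set 1 it read 7.27 and 7.53 in GMT and 7.29, 7.21 and 7.21 in NGMT, against 6.38, 6.23 and 6.44 in 0F. It was below the array median on the 3 0F arrays and above it on the other 25. The log2 difference was 1.05 ± 0.11 in GMT against 0F (limma, adjusted p = 5.61e-09), and 0.56 to 0.88 in the other 5 combinations, all called. The direct differences ran from 1.02 to 1.31 and were all called. They were over 1.5 times larger than the set-adjusted ones in HGMT, HNGMT, DMT and DMNT. Gata3 read 0.48 ± 0.07 higher in set 2 than in set 1 within GMT and NGMT.

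Gata6, expressed in heart and smooth muscle, read 7.73 and 7.79 in GMT and 7.60, 7.44 and 7.67 in NGMT of set 1, against 8.42, 8.59 and 8.57 in 0F. No GMT or NGMT value reached the lowest 0F value. The log2 difference was -0.85 ± 0.10 in GMT against 0F (limma, adjusted p = 5.36e-08), -0.90 in NGMT, -1.12 in DMT and -1.25 in DMNT, all called lower, with direct differences of -0.78 to -0.68 in the same 4. With Hand2 the gene was closer to 0F. The difference was -0.26 in HGMT (adjusted p = 0.0838, not called) and -0.38 in HNGMT (adjusted p = 0.0131), and it was -0.24 (adjusted p = 0.0664, not called) in HNGMT without replicate 1. The direct differences were 0.02 in HGMT and -0.07 in HNGMT, neither called. Within GMT and NGMT Gata6 read 0.33 ± 0.06 higher in set 2 than in set 1 (called). All HGMT and HNGMT arrays lie in set 2 and all 0F arrays in set 1, so these direct differences also carry the difference between sets.

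For Gata2, a factor of blood progenitors and endothelium, the set-adjusted and direct values did not point the same way. In set 1 it read 7.52 and 7.53 in GMT and 7.7, 7.51 and 7.72 in NGMT, against 8.12, 8.16 and 8.16 in 0F, so it was lower without overlap. Set-adjusted differences against 0F were called lower in all 6 combinations, from -0.78 in DMT and DMNT to -0.31 in HGMT, with -0.61 ± 0.09 in GMT (limma, adjusted p = 3.22e-06). Direct differences ran from -0.27 to 0.28 with none called, and were positive in HGMT and HNGMT. Within GMT and NGMT the gene read 0.66 ± 0.05 higher in set 2, which is as large as its difference from 0F in set 1. Only for GMT and NGMT are there set 1 arrays to set beside those of 0F.

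Gata5, which acts in heart valve formation, lay below the array median on all 28 arrays (percentiles 35.9 to 49.0) and was not tested. With no filter on dim probe sets, its differences in the 12 comparisons ran from -0.11 to 0.12 and none was called. In set 1 its NGMT values lay below those of 0F (-0.12) and GMT (-0.14) without overlap, as 69.1% and 27.5% of all tested genes did not overlap. With a probe set this dim, the absence of a call does not exclude a change in Gata5.

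The other MEF2 genes differed from each other. Mef2a lay between the 97.2nd and 98.4th percentile of its array on every array, and in set 1 it read 11.82 and 11.70 in GMT and 11.78, 11.72 and 11.79 in NGMT, against 11.89, 11.87 and 11.79 in 0F. The groups overlapped. Its 12 differences ran from -0.11 to 0.07 and none was called; the 95% interval in GMT against 0F was -0.20 to 0.04. Mef2d read 10.24 and 10.35 in GMT and 10.15, 10.15 and 10.27 in NGMT, against 9.71, 9.78 and 9.75 in 0F, without overlap. Its log2 difference was 0.53 ± 0.09 in GMT against 0F (limma, adjusted p = 9.65e-06) and 0.32 to 0.52 in the other 5 combinations, all called higher, but the direct differences ran from -0.17 to 0.20, none was called, and those of HNGMT, DMT and DMNT were below 0. Mef2d read 0.50 ± 0.04 lower in set 2 than in set 1 within GMT and NGMT. The second Mef2d probe set was higher by 0.30 ± 0.10 in GMT and 0.31 ± 0.09 in NGMT against 0F and was also called in HGMT (0.40) and DMT (0.36), but not in HNGMT (0.19) or DMNT (0.41), among 13492 probe sets tested.

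**Figure D3:**
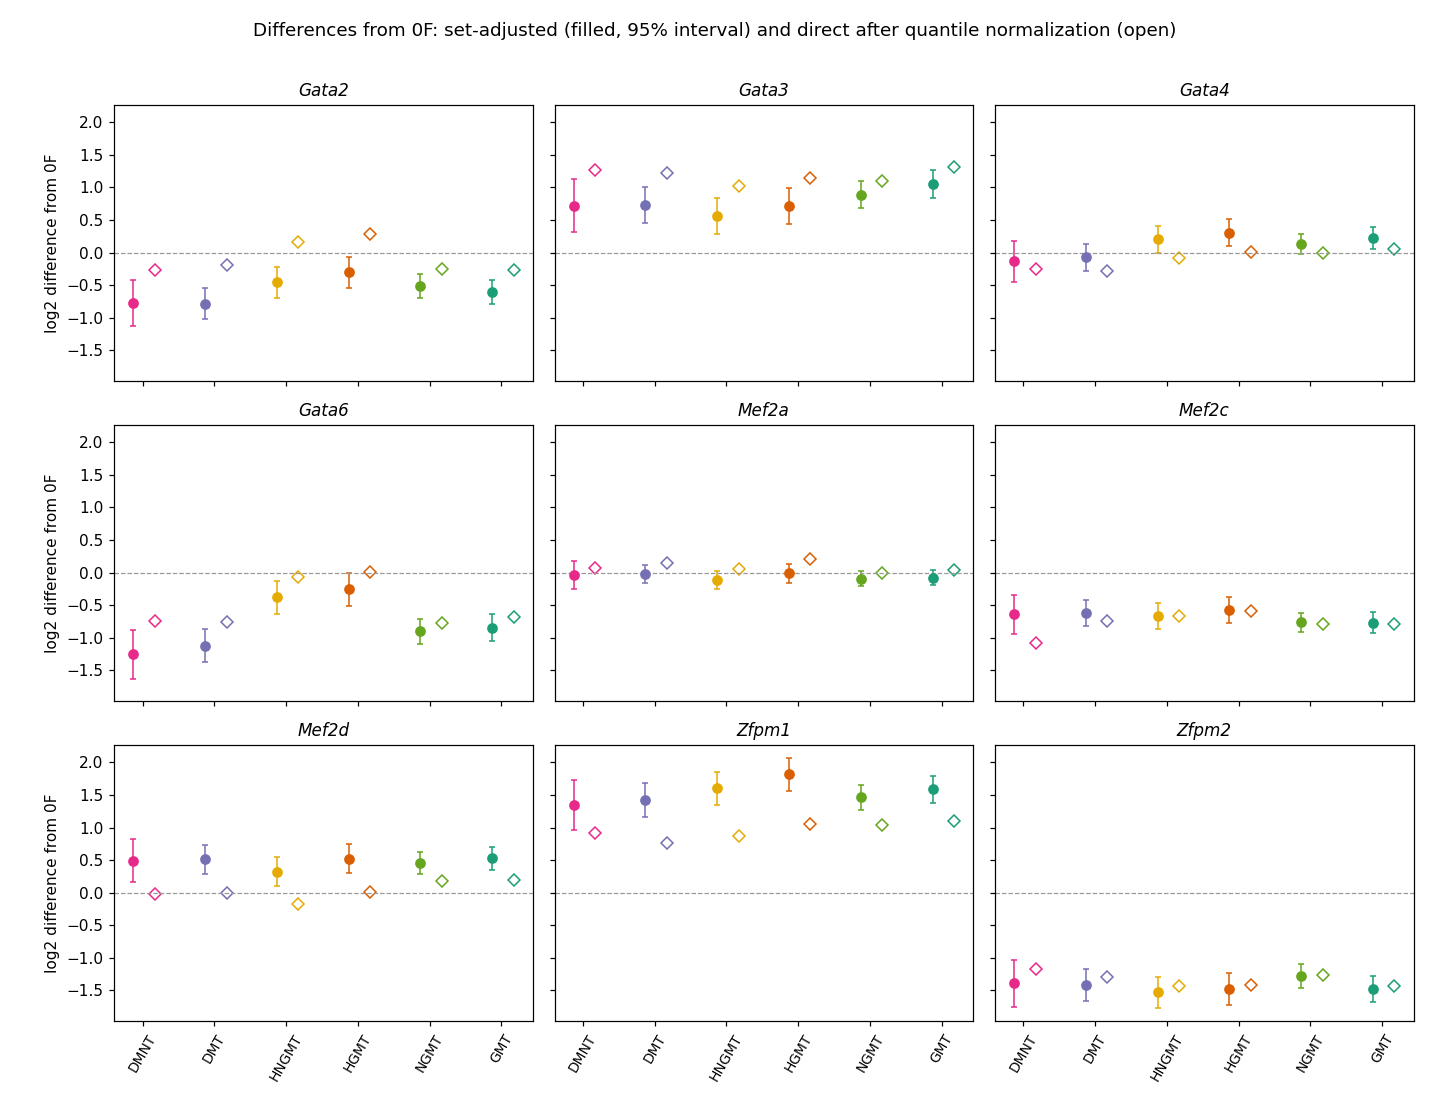
Log2 difference of each combination from 0F for the 9 tested genes, set-adjusted with its 95% interval (filled circles) and direct after quantile normalization without a set term (open diamonds). The 2 values lie on the same side of 0 in every combination for Zfpm1, Zfpm2, Gata3 and Mef2c; they part for Gata2 in HGMT (-0.31 and 0.28) and for Mef2d in HNGMT (0.32 and -0.17).

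The regulators that act on MEF2 proteins were called in both directions. Of 14 tested, 8 were called higher and 3 lower in GMT against 0F (35.9% and 24.1% of all genes), with a median of 0.31 against 0.05 for all genes. In HNGMT against NGMT, where 31.7% of all genes were called, 2 were called higher and 6 lower. The median there was -0.15 against -0.04 for all genes. HNGMT replicate 1, which stood apart, enters these counts, and the list was not read without it. In GMT against 0F, Rcan1, an inhibitor of calcineurin whose own gene calcineurin signalling induces, was higher by 1.53 ± 0.07. The class IIa deacetylases Hdac9 and Hdac4 were higher by 0.97 ± 0.07 and 0.74 ± 0.11 there. Camk4, a kinase that releases these deacetylases, was lower (-0.68 ± 0.07). Rcan1 fell with Hand2 (-0.60 ± 0.07 in HGMT against GMT), where Prkd1, protein kinase D1, was also lower (-0.63 ± 0.12) and Hdac7 and Hdac9 were higher (0.39 ± 0.09 and 0.23 ± 0.07). Of the 14, 3 were called higher and 2 lower in that comparison, where 26.7% of all genes were called. In DMT against GMT, where 18.6% of all genes were called, 1 was called higher (Prkd1, 0.48 ± 0.12) and 1 lower (Camk4, -0.36 ± 0.07).

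Genes long known to carry MEF2 sites were tested as muscle genes and as immediate early or endothelial genes. Of 8 muscle genes tested, 5 were called higher and none lower in GMT against 0F, near the 60.1% of all genes called (35.9% higher), with a median of 1.03. Those of largest difference were Des, the muscle intermediate filament (4.66 ± 0.09), Hspb7, a muscle chaperone (3.40 ± 0.08), Myoz2, a Z-disc protein (2.14 ± 0.12), and Actn2, alpha-actinin (1.29 ± 0.13). Of 7 immediate early or endothelial genes 6 were called higher and 1 lower (35.9% and 24.1% of all genes), with a median of 0.51; Nr4a1, an orphan nuclear receptor, was higher by 1.51 ± 0.16 and Klf2, an endothelial flow-responsive factor, lower (-0.53 ± 0.09). Hdac9 and Rcan1 stand in this list too. The lists were drawn up from textbook knowledge with earlier results of these data known, and the GMT cells, unlike 0F, were selected through a muscle promoter.

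Genes with GATA sites in their regulatory DNA include Mef2c itself. Of 11 tested, 7 were called higher and 1, Mef2c, lower in GMT against 0F (35.9% and 24.1% of all genes), with a median of 0.25. Nppa and Nppb, the natriuretic peptides, were higher by 2.88 ± 0.13 and 2.07 ± 0.15, and the troponins Tnni3 and Tnnc1 by 2.57 ± 0.13 and 1.59 ± 0.14. Of 13 protein partners of GATA4 and MEF2C, 7 were called higher and 1, the delivered Tbx5, lower, and these 8 are near the 60.1% of all genes called; the median was 0.21. They included Smad1, a BMP signal transducer (0.99 ± 0.07), Tbx20, a T-box factor of the heart (0.84 ± 0.14), Myocd, the SRF coactivator (0.50 ± 0.08), and Srf (0.44 ± 0.07).

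The signal of cell type markers differed between GMT and 0F too. Arrays of whole cultures cannot tell fewer cells of a type from less RNA per cell. The summed linear signal of 9 macrophage markers was 1298.9 to 1493.2 on the GMT arrays of set 1, against 6649.5 to 9250.5 on the 0F arrays. Of these 9, 1 was called higher and 8 lower (35.9% and 24.1% of all genes). Below the array median on both GMT arrays lay 5, against 1 on the 0F arrays. The sum of 8 adipocyte markers was 1957.3 to 2214.7 in GMT against 39789.7 to 41171.9 in 0F, with 8 of 8 called lower. The 8 fibroblast markers were called lower too (8 of 8), with a sum of 19453.8 to 21406.0 in GMT against 39791.1 to 40782.5 in 0F. On the GMT arrays of set 2 that sum was 32999.0 to 41133.3, which reaches the 0F values. The sum of 8 cardiomyocyte markers was 11120.1 to 12514.2 in GMT against 767.5 to 810.0 in 0F, and that of 9 mesothelial and epicardial markers 9486.6 to 10141.6 against 705.3 to 820.8. The mesothelial sum was 1940.8 to 2200.0 on the GMT arrays of set 2, so it differed between sets of the same combination. Blood markers, of interest for Gata2 and Zfpm1, summed to 341.4 to 342.5 in GMT of set 1 and 586.1 to 696.4 in 0F over 4 genes. In set 1, 2 of the 4 lay below the median on all arrays of both groups. On the GMT arrays of set 2 the blood sum was 426.9 to 683.9, which reaches the 0F values. The 8 endothelial markers summed to 648.4 to 677.4 in GMT of set 1 and 786.1 to 813.0 in GMT of set 2, against 1040.0 to 1087.7 in 0F. The part of these cell types in the GATA, MEF2 and FOG differences was not tested.

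With NKX2.5 added to GMT no member passed the test. None of 9 was called by limma in NGMT against GMT, where 1.63% of all tested genes were, and 2 of 9 had an unadjusted p under 0.05. The differences ran from -0.17 (Gata3) to 0.19 (Zfpm2). The 95% interval for Zfpm2 was 0.04 to 0.34 (limma, adjusted p = 0.237). In set 1, Zfpm2 read 7.99, 7.87 and 8.01 in NGMT against 7.67 and 7.60 in GMT. It was 1 of 2 tested members without overlap there (27.5% of all genes), the other being Gata6. In set 2 Zfpm2 overlapped, at 8.06, 8.23 and 8.04 in NGMT against 7.92, 8.23 and 7.93 in GMT, and no member was without overlap (7.42% of all genes). Whether the NKX2.5 effect differed between the sets was tested by an interaction contrast, in which no member was called or had an unadjusted p under 0.05 (0.639% of all genes were called), and Zfpm2 had the difference 0.23 ± 0.14 (adjusted p = 0.916). With MYOCD present, none of 9 was called by limma in DMNT against DMT (0.0737% of all genes), and 0 had an unadjusted p under 0.05, in a comparison that rests on 1 DMT array. The differences there ran from -0.13 to 0.02, with a 95% interval of -0.41 to 0.15 for Gata6.

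Gata6 was higher with Hand2 added to GMT. It read 8.62, 8.88 and 8.77 in HGMT, against 8.04, 8.15 and 8.17 in GMT of set 2. Every HGMT array lay above every GMT array. The log2 difference was 0.59 ± 0.09 (limma, adjusted p = 3.11e-05), 1.5 times the GMT level, and 0.64 ± 0.11 inside set 2 alone; 2.49% of tested genes rose more. In the presence of NKX2.5 the gene read 8.36, 8.64 and 8.92 in HNGMT, against 8.14, 8.12 and 8.23 in NGMT, again without overlap. That difference was 0.53 ± 0.09 (adjusted p = 0.000135), and 0.67 ± 0.08 without HNGMT replicate 1.

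Gata2 and Gata3 moved less. Gata2 read 8.57, 8.66 and 8.76 in HGMT against 8.36, 8.44 and 8.32 in GMT of set 2, without overlap, with a difference of 0.30 ± 0.09 (limma, adjusted p = 0.0106). Gata3 read 7.71, 7.71 and 7.67 in HGMT against 7.98, 7.86 and 8.26 in GMT, a difference of -0.34 ± 0.10 (adjusted p = 0.0138). The 3 HGMT arrays were lower than all 3 GMT arrays. In all, 3 of 9 were called in HGMT against GMT, where 26.7% of all genes were, and 4 of 9 did not overlap in set 2 (39.8% of all genes). The fourth was Zfpm1, at 9.08, 9.26 and 9.17 in HGMT against 8.89, 8.88 and 8.92 in GMT, with 0.23 ± 0.09 and an adjusted p of 0.0761 (limma). With HNGMT replicate 1 left out of the fit, Zfpm1 (limma, adjusted p = 0.0104) and Mef2c (0.19 ± 0.07, adjusted p = 0.0404) were called as well (36.6% of all genes). Inside set 2 with all its arrays Gata6 was the 1 member called (17% of all genes).

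In HNGMT against NGMT 3 of 9 were called, where 31.7% of all genes were: Gata6, Gata3 (-0.32 ± 0.10, limma, adjusted p = 0.0180) and Zfpm2 (-0.25 ± 0.09, adjusted p = 0.0388). Gata3 read 7.28, 7.76 and 7.60 in HNGMT against 7.72, 7.89 and 7.99 in NGMT, and Zfpm2 read 7.73, 8.06 and 7.96 against 8.06, 8.23 and 8.04. HNGMT replicate 1 was the lowest array for both, and both groups overlapped. Without it the differences were -0.19 and -0.15 and neither was called, while Zfpm1 (0.31 ± 0.08) and Gata2 (0.20 ± 0.07) were (26.6% of all genes). Without overlap in set 2 were 2 of 9, Gata6 and Mef2c (33.4% of all genes). Set against HGMT, no member was called by limma in HNGMT (0.622% of all genes) and 2 had an unadjusted p under 0.05, with differences of -0.21 to -0.05; without replicate 1 they were -0.09 to 0.04. In the interaction of NKX2.5 with Hand2, limma called no member and none of 12211 genes (0%); 1 member and 2044 genes had an unadjusted p under 0.05.

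**Figure D4:**
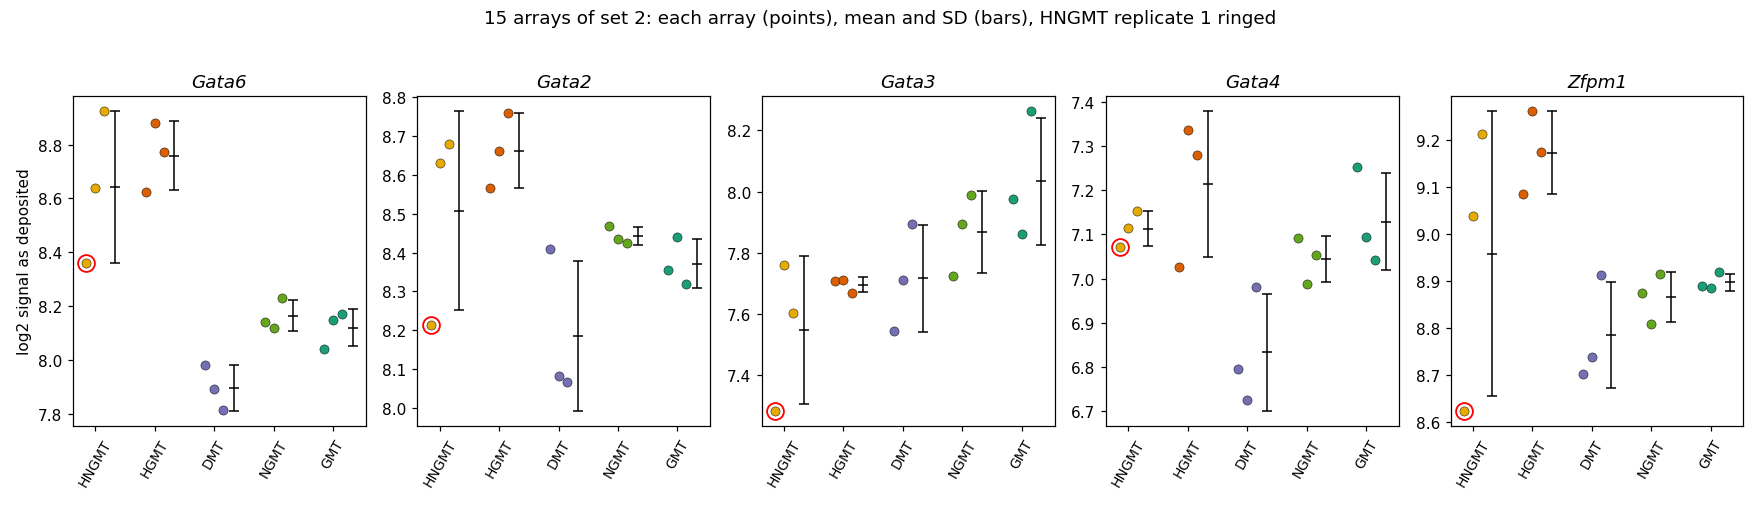
Log2 signal as deposited for 5 genes on the 15 arrays of set 2, with 1 point per array, the mean and SD of each group beside its points, HNGMT replicate 1 ringed and axes that do not start at 0. Gata6 lies highest in HNGMT (8.36 to 8.92) and HGMT (8.62 to 8.88) and lowest in DMT (7.81 to 7.98); the ringed array is the lowest of its group in each of the 5 panels.

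Cell type markers moved with Hand2 as well. The sum of 8 adipocyte markers was 8822.9 to 11203.9 in HGMT against 3320.5 to 4834.6 in GMT of set 2, with 8 of 8 called higher. That of 8 endothelial markers was 997.7 to 1062.7 in HGMT against 786.1 to 813.0 in GMT. Of the endothelial markers 4 were tested, 3 were called higher, and 4 of 8 lay below the median on all HGMT arrays, against 6 on the GMT arrays. Macrophage markers summed to 1250.6 to 3963.8 in HNGMT against 1185.7 to 1839.9 in NGMT of set 2. Their part in the Gata2 and Gata6 differences was not tested. In HGMT against GMT 26.7% of all genes were called, and the list counts that follow stand beside that share. Among 11 tested genes with GATA sites, 4 were called higher and 3 lower. The delivered Hand2, then Tnni3 (-2.07 ± 0.12), Nppa (-1.45 ± 0.12) and Chrm2, the muscarinic receptor of the heart (1.41 ± 0.14), had the largest differences. Of the partners of GATA4 and MEF2C 3 were called higher and 2 lower; beside Hand2 they were led by Tbx20 (2.05 ± 0.13), Smad1 (-0.23 ± 0.07) and Myocd (-0.20 ± 0.07). Of the muscle genes with MEF2 sites 2 were called higher and 2 lower: Des (-1.65 ± 0.08), Myoz2 (-0.69 ± 0.11), Myom1 (0.46 ± 0.13) and Hspb7 (0.40 ± 0.07). Of the immediate early or endothelial genes 2 were called higher and 2 lower, with Nr4a1 at -0.89 ± 0.15 and Klf4, a zinc finger factor, at 0.44 ± 0.07.

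With MYOCD in place of GATA4, 3 GATA genes were lower. Gata4 read 6.79, 6.72 and 6.98 in DMT against 7.25, 7.09 and 7.04 in GMT of set 2, and every DMT array was lower than every GMT array. The log2 difference was -0.30 ± 0.08 (limma, adjusted p = 0.00555), a level of 0.81 times that in GMT, for the gene that was delivered in GMT alone. Gata6 read 7.98, 7.89 and 7.81 in DMT against 8.04, 8.15 and 8.17 in GMT, without overlap, with -0.28 ± 0.09 (adjusted p = 0.0384). Gata3 read 7.54, 7.71 and 7.89 in DMT against 7.98, 7.86 and 8.26 in GMT, with overlap, and -0.32 ± 0.10 (adjusted p = 0.0272). These 3 of 9 stand beside 18.6% of all genes called, and 2 of 9 without overlap beside 31.4%. The DMT array of set 3 carries no weight in these differences, but the arrays of set 3 enter the shared estimate of spread behind their SE and p. Without set 3, a setting chosen after seeing the data, 2 members were called. Inside set 2 alone Gata4 was the 1 member called (12.9% of all genes). Neither MEF2 nor FOG genes were called: Mef2c was at 0.15, Mef2d at -0.01, Zfpm1 at -0.16 and Zfpm2 at 0.06. Without DMT replicate 2 no member was called. Cell type markers moved in this comparison too. The sum of 8 adipocyte markers was 1844.5 to 2268.6 in DMT against 3320.5 to 4834.6 in GMT of set 2, with 6 of 8 called lower. That of 6 skeletal muscle markers was 1971.6 to 2217.4 in DMT against 463.5 to 489.9 in GMT, with both tested markers called higher and 4 of 6 below the array median on all arrays of both groups. Of 4 endothelial markers tested 1 was called higher and 2 lower. Their part in the Gata3, Gata4 and Gata6 differences was not tested.

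The listed muscle and cardiac genes were compared between DMT and GMT too, where 18.6% of all genes were called. Of the muscle genes with MEF2 sites 5 of 8 were called higher and 1 lower, with a median of 0.49 against 0.01 for all genes: Myom1, an M-band protein (3.01 ± 0.13), Srl, sarcalumenin (2.79 ± 0.08), Ckm, muscle creatine kinase (1.38 ± 0.08), and Myoz2 (-0.57 ± 0.11) led them. Of the genes with GATA sites 4 of 11 were called higher and 3 lower, with Nppa at 3.76 ± 0.12, Myh6, alpha myosin heavy chain, at 2.47 ± 0.11, Tnnc1 at 1.90 ± 0.13 and Tnni3 at -2.26 ± 0.12. None of the 7 immediate early or endothelial genes was called by limma, and 1 had an unadjusted p under 0.05. Of the partners 2 were called higher and 1 lower, the delivered Myocd, Srf (0.21 ± 0.07) and Smad1 (-0.37 ± 0.07).

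Across the 15 arrays of set 2 some genes followed a member closely, which is given as a description of arrays that share groups, array set and HNGMT replicate 1. The 2 genes of highest Pearson correlation with Gata6 were Lhfp (0.98) and Tgfa (0.97), but over the 8 arrays of set 1 the same pairs had correlations of -0.91 and -0.87. For Gata3 they were Bcar3 (0.94, and -0.87 in set 1) and Efr3b (0.93, and 0.84 in set 1). Those of Mef2d were high in both sets: Atxn2 (0.97 and 0.92) and Ubap2l (0.96 and 0.89), as were those of Mef2c, Rftn2 (0.87 and 0.94) and Sec16b (0.87 and 0.97). For Zfpm1 they were E4f1 (0.95 and -0.65) and Fbxl14 (0.93 and 0.75), and for Zfpm2 Sec63 (0.85 and -0.68) and 2510002D24Rik (0.82 and 0.41). Gata2 was closest to Kcnd1 (0.94 and -0.20) and Zfp36l2 (0.94 and -0.52), Gata4 to Igsf23 (0.92 and 0.64) and Dlgap1 (0.90 and 0.51), and Mef2a to Sfswap (0.92 and 0.11) and Ubp1 (0.92 and -0.16). Every set 1 correlation spans the 0F arrays, and 73.9% of all tested genes did not overlap between GMT and 0F there. A high value in set 1 therefore carries the difference from 0F and is no separate sign of a link between 2 genes. Among the members themselves Zfpm1 and Zfpm2 had a correlation of -0.98 in set 1, which holds the 0F arrays, and of -0.01 in set 2, where all arrays carry factors. Gata2 and Gata6 had 0.94 in set 1 and 0.85 in set 2.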

How the data were processed

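Total RNA, prepared by a core facility per the labels' protocols, was read on 28 single-channel arrays. The authors deposited log2 signal for 35556 probe sets, from 3.757941 to 14.46866. MAS5 is the only tool in the submitters' processing notes, and the sources used here give neither its version nor the summarization and scaling. The files hold no read depth, so the number of arrays limits the precision (0 columns were left unused).

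Groups follow the titles. Array sets were found from the mean distance between sorted values (at most 0.0486 inside a set, at least 0.135 between sets). Gene names came from the platform annotation: 21789 probe sets had 1 symbol, 1621 several and 12146 none, and 0 symbols changed on matching to RefSeq genes. A gene's brightest probe set on average stood for it, and 12211 genes that passed the array median on 3 or more arrays were tested. Differences were fitted with limma 3.58.1 in R 4.3.3 (lmFit, contrasts, eBayes with trend, two-sided, 19 residual degrees of freedom), with group and set as terms. The median distance from a difference to its 95% bound was 0.14 in GMT and 0.27 in DMNT against 0F. On simulated data with known changes of 1 in log2, the fit recovered 100% in GMT against 0F and 91% in DMNT against 0F, and of 0.5, 88% and 47%, among 12211 genes. The simulation changed 200 genes and drew independent normal noise. In the data 60.1% and 41.4% of genes were called in these comparisons, and set 3 arrays shared equal values, so the recovered shares may differ from those in the data.

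The members and lists, and the rule for named genes, were chosen with earlier results of these data known. That rule takes the 10 members in every comparison, the 2 genes most correlated with each over set 2, and up to 4 called genes of each pathway list with the largest difference. Alternatives were quantile normalization with and without the set term, no filter, a constant of 16 added, the mean of a gene's probe sets, the replicate number as a block, set 1 or set 2 alone, and leaving out each array. Leaving out set 3, and set 2 without HNGMT replicate 1, were chosen after seeing the data.

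Promoter windows are the 250 bases before transcript starts in RefSeq (GRCm38.p6), some of them inside the annotated gene, with 10 windows searched for 7 members. Member windows on chromosome 18, where Gata6 lies, were left out. Blood, neural and skeletal muscle markers were read with the other marker lists, and 2 genes of each were tested. In GMT against 0F 0 of the skeletal muscle genes were called, 1 neural gene was higher and 1 lower, and 1 blood gene was lower. Both skeletal muscle genes were called higher in DMT and DMNT against 0F.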

Additional observations from a re-analysis of the deposited data

Results flagged for a closer look

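In 8 combinations of gene and group with 4 arrays inside 1 set, which are the DMNT arrays of set 3, the most distant array was set against the range of its group by Dixon's ratio, and 3 passed the 95% critical value. Chance alone flags about 1 in 20 groups. Gata2 in DMNT replicate 1 was at 8.7107 against 8.70 on the other 3 arrays, Mef2d in replicate 3 at 10.29 against 10.39 to 10.40, and Zfpm2 in replicate 1 at 8.8589 against 8.75 to 8.77. The gaps are small, and on these arrays many genes had exactly equal values. The cause was not tested.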

How the results depend on the processing

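No called member changed sign with a constant of 16 added, the mean of a gene's probe sets, no filter, quantile normalization with the set term, the replicate block, 1 set alone or 1 array left out. Without a set term after quantile normalization, 5 called values changed sign: Gata2 was at 0.28 in HGMT and 0.16 in HNGMT against 0F, and Mef2d at -0.17 in HNGMT, -0.0093 in DMT and -0.0207 in DMNT against 0F. Under that setting the members called were 5 in GMT, 4 in HGMT and 4 in HNGMT against 0F, and 1 each in HNGMT against NGMT, DMT against GMT and DMNT against DMT (Mef2c, -0.34). Inside set 2 alone 1 member was called in each of HGMT against GMT, HNGMT against NGMT and DMT against GMT. Replicate numbers did not pair the arrays: over 21 same-numbered pairs the correlation of deviations ran from -0.26 to 0.41, and 7 were over 0.1. With the replicate number as a block 1 member was called in HGMT against GMT, 1 in HNGMT against NGMT and 0 in DMT against GMT. Leaving out 1 array at a time, the members called ranged from 0 to 1 in NGMT against GMT (1 without GMT replicate 4), 1 to 5 in HGMT against GMT (1 without HGMT replicate 3, 5 without HNGMT replicate 1), 0 to 3 in HNGMT against HGMT (2 and 3 without HNGMT replicates 2 and 3), 2 to 4 in HNGMT against NGMT (4 without HNGMT replicate 3) and 0 to 4 in DMT against GMT (0 without DMT replicate 2, 4 without HNGMT replicate 1). Without set 3, a setting chosen after seeing the data, members called were 2 in HNGMT against NGMT and 2 in DMT against GMT. The causes were not tested.

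Counts over all genes moved by over 1.5 times in these cases. Without a set term they were 4 in NGMT against GMT (199 in the fit reported), 2024 in HGMT against GMT (3258), 0 in HNGMT against HGMT (76; limma, 1218 at an unadjusted p under 0.05), 7787 in DMNT against 0F (5060) and 719 in DMNT against DMT (9). With the block they were 2088 in HGMT against GMT, 1401 in HNGMT against NGMT (3865), 19 in HNGMT against HGMT and 0 in DMNT against DMT (limma, 192 at an unadjusted p under 0.05). Inside set 2 alone they were 2080 in HGMT against GMT, 2145 in HNGMT against NGMT and 1 in HNGMT against HGMT. NGMT against GMT had 674 in set 1 alone and 1 in set 2 alone, and 52 to 386 with 1 array left out. HNGMT against HGMT had 44 without the filter, 40 with quantile normalization and the set term, and 1 to 3143 with 1 array left out. DMNT against DMT had 14 with quantile normalization and the set term, and 5 to 43 with 1 array left out. Of the settings chosen after seeing the data, leaving out set 3 gave 101 in NGMT against GMT and 6 in HNGMT against HGMT. Set 2 without HNGMT replicate 1 gave 1 in NGMT against GMT, 2534 in HNGMT against NGMT and 1 in HNGMT against HGMT.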
